A study of Mus musculus with 16 samples.

Results

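Formalin fixes tissue by adding methylol groups to bases and proteins and then joining them by methylene bridges. RNA taken from formalin-fixed, paraffin-embedded tissue is therefore broken into short pieces and chemically modified, which is known to hinder reverse transcription. On a microarray the reading of a transcript then depends on how well the stretch under its probe survives, as well as on how much of the transcript the cell held.

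The comparison described here is that of furan-dosed mouse livers kept in formalin for 3 weeks with furan-dosed livers kept in formalin for 18 h. It took 8 of the 16 arrays of the series, 4 at each time, chosen by their dose and fixation labels. All 8 livers came from female B6C3F1 mice, a hybrid strain used in toxicology, bought at 5 to 6 weeks of age and acclimatised for at least 7 days. All of the mice received furan, a volatile compound that liver cytochrome P450 converts to a reactive aldehyde, by gavage at 8 mg per kg in corn oil for 21 days, and tissue was taken 4 h after the last dose. So the dosing is common to both groups, and the difference between them is the fixation. The labels give 4 biological replicates per dose group, numbered 41 to 44 at both times. They do not say whether a number stands for the same animal at both times. Each RNA extract used 1 section of 10 µm for the 18 h livers but 2 for the 3-week livers, so that sections and time in formalin cannot be told apart. The labels put the RNA integrity numbers of the series between 1.3 and 2.4, where intact RNA scores far higher. On each Agilent array 825 ng of liver cDNA in Cy5 was hybridised against an equal mass of a pool of the cDNA of all samples in Cy3. A log2 level below is the log2 of liver over pool, and a log2 difference is the level at 3 weeks minus that at 18 h, fitted by limma with the slide as a term. A gene is called when its limma p, adjusted by Benjamini-Hochberg over all genes, is under 0.05.

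The arrays at 3 weeks had fewer probes well above background in the liver channel. The share of probes well above background, a flag that the scanner software sets from the local background, was 53.1%, 55.2%, 54.5% and 51.9% for 18 h replicates 41 to 44. At 3 weeks it was 35.9%, 38.0%, 41.4% and 37.1%. Every 3-week array was thus below every 18 h array. The means were 53.7% ± 1.48 (SD, n = 4) and 38.1% ± 2.39 (SD, n = 4), a difference of -15.6 percentage points (two-sided exact permutation test, p = 0.0286, the smallest value that 4 against 4 allows). In the reference channel, which held the same pool on every array, the share was 59.0% ± 0.41 (SD, n = 4) beside the 18 h livers and 54.6% ± 3.76 (SD, n = 4) beside the 3-week livers (exact permutation p = 0.0286). The lower 3-week reference values, 51.5% and 51.2%, were those of slide 1, while slide 2 gave 57.6% and 58.2%. What part of the loss came from the hybridisation was not tested. The median ratio of signal to background in the liver channel was 2.45 at 18 h and 2.2 at 3 weeks (exact permutation p = 0.114). The loss depends on the flag, since spots with a signal at least 1.5 times the local background made up 97.6% ± 3.98 (SD, n = 4) at 18 h and 99.9% ± 0.22 (SD, n = 4) at 3 weeks (exact permutation p = 0.171).

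**Figure D1:**
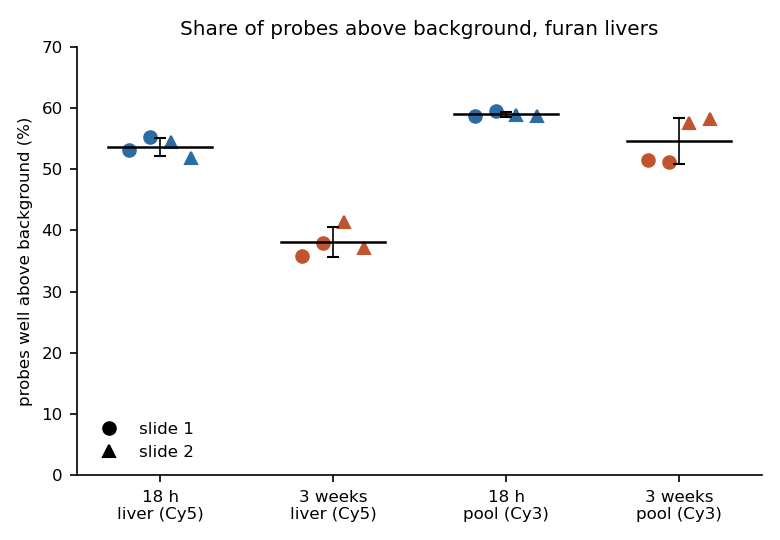
Percentage of probes well above background on each of the 8 furan arrays, for the liver channel and for the pooled reference channel, with circles for slide 1 and triangles for slide 2. Black lines and bars give the mean and SD of 4 arrays, and in the liver channel the 3-week arrays (35.9% to 41.4%) lie below the 18 h arrays (51.9% to 55.2%).

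Replicates of a time resembled each other and differed from the other time. Across genes the median correlation between arrays was 0.87 within 18 h and 0.87 within 3 weeks, against -0.12 between the times, where the pool common to all arrays stands in the denominator. The first principal component, which held 82.9% of the variance, separated the times. Slide 1 held replicates 41 and 42 of both times and slide 2 held 43 and 44. As a check of the tissue, all 15 hepatocyte markers examined were well above background on all 8 arrays.

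Of 21768 genes or transcripts tested, 15033 were called, which is 69.1%, with 8369 higher at 3 weeks (38.4%) and 6664 lower (30.6%). The 4 values of one time lay wholly above the 4 of the other for 13097 genes, or 60.2%. A fitted difference of at least 2-fold was reached by 2472 of the higher and 1942 of the lower genes, and at least 4-fold by 332 and 173. The split between directions depends on the scaling of the arrays. With median centring in place of loess, 13437 genes were called, of which 3309 were higher and 10128 lower, so that 24.6% of calls were higher against 55.7%. The median log2 difference over all genes was then -0.28 in place of 0.09. With the authors' own values 7442 were higher and 7532 lower. The counts below are therefore read against these shares of all genes and not against 0.

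Small nuclear RNAs, the RNA components of the splicing machinery, were among the largest rises. Rnu12, the RNA of the minor spliceosome's branch site factor, had log2 levels of -2.83, -2.82, -2.68 and -2.96 in 18 h replicates 41 to 44 and of 1.95, 1.88, 1.64 and 1.44 at 3 weeks. Its log2 difference was 4.55 (SE 0.12, limma, adjusted p = 4.41e-09), a fitted ratio of 23.5. Rnu1b6, a U1 RNA that recognises the start of an intron, stood at -1.71, -1.78, -2.04 and -2.06 at 18 h and at 2.22, 2.2, 2.1 and 1.76 at 3 weeks. The 2 groups were far apart for both RNAs, and the spread within each was small beside the gap between them. Rnu2-10, a U2 RNA, rose from between -2.73 and -2.39 to between 1.05 and 1.6, a log2 difference of 3.96 (SE 0.11).

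Other large rises were seen in protein-coding genes. Ncbp3, a subunit of an alternative nuclear cap-binding complex, had log2 levels of -2.42, -2.68, -2.85 and -3.04 at 18 h and of 1.47, 1.63, 1.1 and 1.1 at 3 weeks, a difference of 4.07 (SE 0.10). Its second probe fell by 0.48 on the log2 scale, and both probes were called. Hbb-bs, a beta-globin gene, had levels of -2.24, -1.84, -2.25 and -2.27 at 18 h and of 1.67, 2.35, 1.34 and 1.02 at 3 weeks. Its difference was 3.75 (SE 0.18, limma, adjusted p = 1.13e-07). Close paralogs of this gene could share its probe. Slc27a4, a fatty acid transport protein, rose by 3.32 (SE 0.23), with 3-week replicate 42 at 0.54 below the other 3, which lay between 1.21 and 1.76. Bhlhe41, a transcriptional repressor of the circadian clock, rose by 3.07 with its brightest probe and fell by 0.70 with its other probe. Rtl4, a gene derived from a retrotransposon, rose by 3.85 (SE 0.14). Among called genes with a symbol, no overlap and 3 or more arrays above background at each time, the remaining genes of the 12 largest rises were Tmem89 (3.34, SE 0.36), Gm4861 (3.31), Ccdc60 (3.05) and the zinc finger gene Zfp691 (3.05).

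The largest falls included enzymes, structural proteins and a transcription factor. Uroc1, the urocanate hydratase of histidine breakdown, had log2 levels of 0.35, 0.28, 0.33 and 0.67 at 18 h and of -2.70, -2.63, -2.77 and -2.69 at 3 weeks. Its difference was -3.10 (SE 0.11, limma, adjusted p = 3.23e-08). Gpx1, the main cytosolic glutathione peroxidase, stood between -0.05 and 0.12 at 18 h and between -2.88 and -2.48 at 3 weeks, a difference of -2.71 (SE 0.11). For both genes the times were separated by more than 2 log2 units with no overlap. Pfn1, the actin-binding protein profilin, went from 0.24, 0.34, 0.23 and 0.14 to -2.46, -2.40, -2.51 and -2.70. Fdft1, the squalene synthase that commits carbon to cholesterol, fell by 2.62 (SE 0.13) and its second probe fell by 1.21. Zbtb20, a transcription factor that represses fetal genes in adult liver, fell by 2.62 (SE 0.11). Aldh3a2, a fatty aldehyde dehydrogenase, fell by 2.59 and Aup1, a lipid droplet protein, by 2.78. Irak2, a kinase of interleukin and Toll-like receptor signalling, fell by 2.76 with one probe and by 0.55 with its other.

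Several of the genes with the largest falls rest on 1 probe of 2, or have close copies. Cnnm3, a membrane protein linked to magnesium transport, gave the largest fall among genes named by symbol (-3.19, SE 0.10), while its other probe differed by -0.02 (limma, adjusted p = 0.91). The histone genes H4c9 and H4c14 fell by 2.65 each, but their second probes gave 0.20 and 0.44. H4 genes encode the same protein, and H2-K2 (-2.72), a pseudogene of the MHC class I family, is likewise near-identical to its relatives, so these probes could read several loci.

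**Figure D2:**
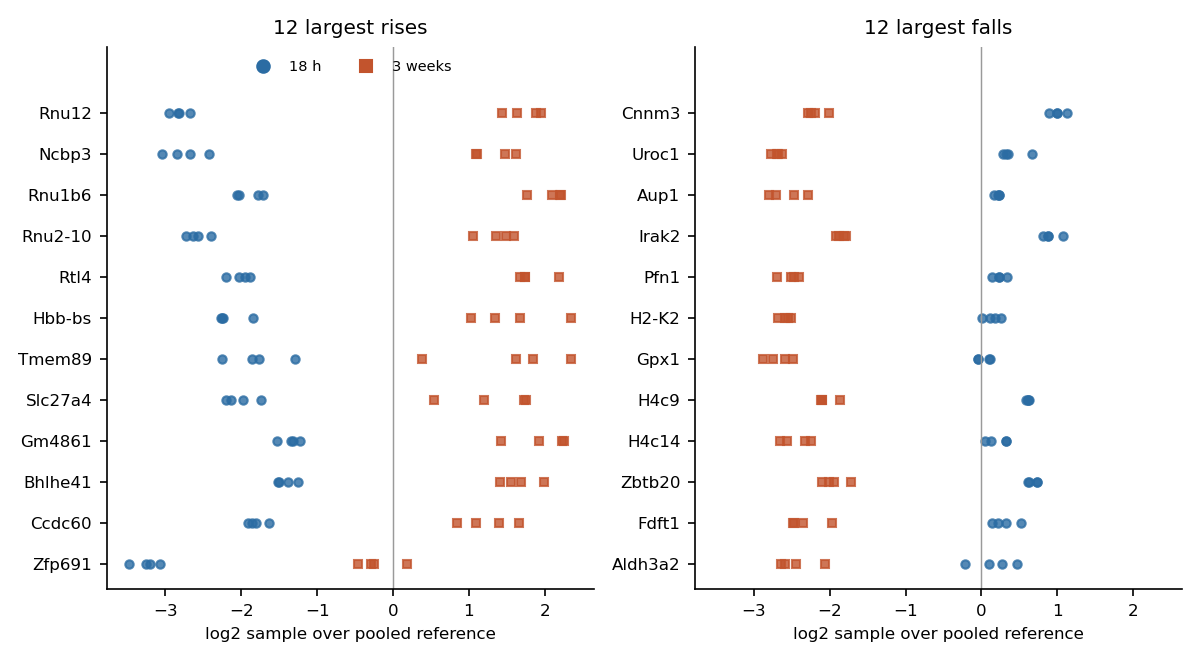
Log2 level of liver over pooled reference on each of the 8 furan arrays for the 12 largest rises (left) and 12 largest falls (right) of called genes with a symbol, no overlap between the times and 3 or more arrays above background at each time, with blue circles for 18 h and orange squares for 3 weeks. Rnu12 moved from between -2.96 and -2.68 to between 1.44 and 1.95, and Uroc1 from between 0.28 and 0.67 to between -2.77 and -2.63.

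A number of transcripts crossed the detection limit between the times. The probes of 2429 genes were well above background on all 4 arrays at 18 h and on none at 3 weeks, and 1597 of them were called lower and 78 higher. The reverse held for 111 genes, all of them called higher. Choosing genes by their detection fixes most of these directions, so the counts are a description and no result. For such genes the dim side has only a bound, so a fold was computed in the liver channel alone, after loess and Aquantile scaling and open to dye bias, from the bright group's mean to the higher of the dim group's own signal and the lowest signal that counts as above background. That bound can lie above the fitted fold of liver over pool, which is given beside it, so both are tied to their scale. Among the genes lost, Spryd7 was at least 3.39-fold lower at 3 weeks in the liver channel, with mean log2 intensities of 8.74 at 18 h and 6.95 at 3 weeks, and 3.24-fold lower over the pool. Dera, an aldolase of deoxyribose phosphate, was at least 3.14-fold lower in the channel (8.92 against 7.28) and 3.05-fold over the pool. Cldn2, a claudin that forms cation channels in tight junctions, was at least 2.99-fold lower (8.89 against 7.27), against a fitted 3.0-fold. Phf14, a chromatin reader, was at least 2.96-fold lower in the channel and 2.69-fold over the pool. Its other probe gave a log2 difference of -0.42 (limma, adjusted p = 0.059).

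The genes that appeared at 3 weeks included several known from other tissues. Bhlha9, a transcription factor of limb development, was at least 7.83-fold higher in the liver channel, with mean log2 intensities of 6.68 at 18 h and 9.66 at 3 weeks, but 5.76-fold higher over the pool. Its log2 levels were -0.37, -0.47, -1.0 and -0.89 at 18 h and 2.09, 2.01, 1.41 and 1.87 at 3 weeks. Ccnb1ip1, a ligase needed for meiotic crossing over, was at least 7.65-fold higher in the channel and 7.28-fold over the pool, and Ajm1, a junction protein, at least 6.63-fold and 6.42-fold. Gsx1, a homeobox factor of the embryonic brain, was at least 5.99-fold higher in the channel (6.24-fold over the pool) and Adad1, a testis protein with an adenosine deaminase domain, at least 5.90-fold (5.75-fold). All of these probes were above background on 4 of 4 arrays at 3 weeks and on 0 of 4 at 18 h. Ajm1 had another kept probe, which rose by only 0.36 on the log2 scale (limma, adjusted p = 0.042).

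By class of transcript, short and noncoding RNAs were higher more often than protein-coding genes. Of 9 structured small RNAs, 8 were called higher and 1 lower, with a median log2 difference of 2.67 against 0.09 for all genes. Snora47 and Snora74a, small RNAs of the nucleolus, rose by 2.67 (SE 0.17) and 3.11 (SE 0.10). Snora74a was above background on 1 of 4 arrays at 18 h and on 4 of 4 at 3 weeks. Rnu3b1, a U3 RNA that directs the cutting of the ribosomal RNA precursor, rose by 2.41 (SE 0.18). Rn28s1, the large ribosomal RNA, had levels of -0.75, -0.45, -0.65 and -0.29 at 18 h and of 2.34, 1.95, 2.35 and 1.5 at 3 weeks, and rose by 2.57 (SE 0.19). Terc, the template RNA of telomerase, rose by 1.46 (SE 0.20). Rmrp, the RNA of a mitochondrial and ribosomal RNA processing enzyme, was the exception, with levels of -0.03, 0.10, -0.23 and -0.11 at 18 h and of -0.70, -0.85, -0.71 and -1.18 at 3 weeks, a difference of -0.79 (SE 0.12, limma, adjusted p = 0.00016). Rn4.5s, which lies outside the list and was singled out after its value was seen, differed by 0.16 (limma, adjusted p = 0.167). Under median centring the count of small RNAs was again 8 higher and 1 lower. Several of these RNAs come from multicopy genes, so a probe can read more than 1 locus.

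The array also carries probes for both strands of long intergenic noncoding regions. Of 3245 region strands tested, 1661 were higher at 3 weeks (51.2%) and 543 lower (16.7%), with a median log2 difference of 0.35. The median turned to -0.06 under median centring, where that of all genes was -0.28, and was 0.20 with the authors' values. Among region strands above background on all 8 arrays the median was 0.55, against 0.21 for protein-coding genes under the same condition. The region with the largest rise, chr17:35080914-35090009 (mouse build mm9, forward strand), had levels of -2.75, -2.89, -3.08 and -3.14 at 18 h and of 1.45, 1.61, 1.25 and 0.93 at 3 weeks, a difference of 4.27 (SE 0.11). Of its 8 other kept probes, 3 rose, by 3.87, 2.58 and 0.48, while 1 fell by 0.86. The forward strand of chr11:6421951-6429173 rose by 3.89 (SE 0.10), with another probe that fell by 0.75, and that of chr2:168804720-168854970 fell by 3.48 (SE 0.09), although another of its probes rose by 1.04. For 734 regions both strands were kept, and the differences of both strands correlated at r = 0.34 across regions, which are not independent replicates and share arrays. When both strands were called, in 372 regions, 228 were higher on both, 50 lower on both and 94 opposite. What genes overlap these regions was not examined.

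Of 18 named long noncoding RNAs, 4 were higher and 6 lower, with a median of -0.13. Under median centring 1 was higher and 11 lower. Of the 18, 3 passed from 4 arrays above background to none. Among those above background on all 8 arrays, 4 of 8 were higher and 2 lower, with a median of 0.23. Of all 284 tested genes typed as long noncoding RNA by RefSeq, 122 were higher and 59 lower, with a median of 0.19. That class was not examined under median centring. Malat1, a nuclear RNA retained in speckles, had levels of -0.98, -0.63, -0.44 and -0.29 at 18 h and of -0.08, -0.27, -0.24 and -0.30 at 3 weeks, so that the groups overlapped. Its difference was 0.37 (SE 0.14, limma, adjusted p = 0.035), which became -0.44 under median centring. With the replicate number as a block Malat1 was not called. Xist, the RNA that coats the inactive X chromosome, rose by 0.82 with its brightest probe and by 0.81 with its other. Kcnq1ot1, an imprinted antisense RNA, was above background on 4 of 4 arrays at 18 h and 0 of 4 at 3 weeks, and was at least 2.80-fold lower in the liver channel and 2.6-fold lower over the pool. Airn, another imprinted antisense RNA, fell by 0.75 (SE 0.11) with its brightest probe, while its other probe gave 0.39 (limma, adjusted p = 0.057).

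Olfactory receptors, which liver is not known to use, served as a family with little expression. Of 186 that passed the filter out of 1343 on the array, 109 were higher and 9 lower, with a median of 0.42, or 0.15 under median centring. With no filter 203 of all 1343 were higher and 16 lower, with a median of 0.11. Without the filter 9214 of 37074 genes were higher and 6671 lower, with a median of 0.08. Both shares of the receptors were then smaller than those of all genes. Olfr1410 rose from between -0.35 and -0.06 to between 1.02 and 1.29. Of 298 zinc finger genes, 101 were higher and 106 lower, with a median of -0.02. Of these, 48 passed from 4 arrays above background to none. Among zinc finger genes above background on all 8 arrays 86 of 168 were higher and 43 lower. Their median was 0.31, against 0.285 for all genes under that condition. Under median centring 38 were higher and 146 lower, with a median of -0.32. Zfp385c rose by 2.41 (SE 0.09) and Zfp936 fell by 2.33 (SE 0.09), both with 4 of 4 arrays above background at each time. Histone genes gave 13 higher and 16 lower of 39, or 9 and 24 under median centring, and H2bc6 rose by 2.45 (SE 0.17).

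The genes of hepatocyte metabolism were lower more often than genes at large. Of 34 plasma proteins, 20 were lower and 3 higher, with a median of -0.59. Ttr, the carrier of thyroxine and retinol-binding protein, had log2 levels of 0.06, 0.21, 0.10 and 0.20 at 18 h and of -1.85, -1.96, -1.68 and -2.21 at 3 weeks. Its difference was -2.06 (SE 0.12, limma, adjusted p = 2.99e-07), and the groups did not overlap. Fgg, a chain of fibrinogen, fell by 1.89 (SE 0.11). Apob, the protein of low density lipoprotein, fell by 1.82 with its brightest probe, while its other probe rose by 0.36. Alb, serum albumin, behaved unlike these. Its levels were -0.12, -0.17, -0.33 and -0.10 at 18 h and 0.31, 0.02, 0.24 and -0.18 at 3 weeks, which overlap, and its difference of 0.27 (SE 0.12) was not called (limma, adjusted p = 0.069). It was -0.02 with the authors' values and -0.18 with Agilent's log ratio.

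Cytochrome P450 genes, which oxidise drugs, steroids and fatty acids, gave 18 lower and 4 higher of 27, with a median of -0.87. Cyp2d22 went from 0.38, 0.13, 0.06 and 0.10 at 18 h to -2.12, -2.43, -2.14 and -2.41 at 3 weeks, a difference of -2.44 (SE 0.12). Cyp2c29 fell by 2.0 and Cyp4f14, which acts on leukotrienes and fatty acids, by 1.97. Members of these subfamilies are similar enough to share reads of a probe. Cyp2e1, the enzyme that oxidises furan, had levels of 0.26, 0.53, 0.21 and 0.41 at 18 h and of -1.38, -1.11, -1.15 and -1.33 at 3 weeks. It fell by 1.6 (SE 0.11, limma, adjusted p = 7.97e-07), and its other probe by 1.12.

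Amino acid and urea cycle enzymes gave 27 lower and 5 higher of 39, with a median of -0.70. Fumarylacetoacetase, encoded by Fah, closes the breakdown of tyrosine and fell by 1.81 (SE 0.10), and Cbs, which begins transsulfuration, by 1.92 (SE 0.11). Fatty acid oxidation gave 19 lower and 4 higher of 31, with a median of -0.77. Etfdh, which passes electrons from fatty acid oxidation to ubiquinone, fell by 1.74, and Hsd17b4 and Decr2, of the peroxisomal pathway, by 1.45 and 1.35. Bile acid genes gave 11 lower and 5 higher of 22, with a median of -0.28. The importer Slc10a1 fell by 2.13 (SE 0.10) and the importer Slco1b2 fell by 2.04 (SE 0.09), and Amacr, which prepares the side chain for shortening, by 1.93. The medians of these 5 lists stayed below 0 under median centring, with the authors' values and with Agilent's log ratio.

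Of 24 cholesterol genes 12 were lower and 9 higher, or 15 and 4 under median centring, and beside Fdft1 the falls included Acat2 (-1.65). Of 19 fatty acid synthesis genes 9 were lower and 5 higher, or 12 and 0 under median centring. Their median of 0.04 turned to -0.52 under median centring, -0.05 with the authors' values and -0.18 with Agilent's log ratio. Me1, the malic enzyme that supplies NADPH, fell by 1.99 with its brightest probe, and the 2 others fell by 0.61 and 1.71. Elovl5 and Fads2, an elongase and a desaturase of polyunsaturated fatty acids, fell by 1.6 and 1.5.

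The machinery that most cells share was lower more often than higher, with members in both directions. Of 84 ribosomal protein genes 44 were lower and 26 higher, with a median of -0.36. Rplp1, a protein of the ribosomal stalk, had levels of 0.44, 0.30, 0.43 and 0.41 at 18 h and of -1.40, -1.38, -1.43 and -1.43 at 3 weeks, a difference of -1.81 (SE 0.09, limma, adjusted p = 1.13e-07). Rps2 fell by 1.87 and Rpl30 by 1.81, but the other probe of Rps2 gave 0.24 and 1 of the 2 others of Rpl30 gave 0.15. These genes have many processed copies in the genome, so the reading of single probes is uncertain. Of 74 mitochondrial ribosomal proteins 33 were lower and 21 higher. Mrps26 and Mrps14 rose by 1.63 and 1.6, and Mrpl37 fell by 1.46. However, the second probe of Mrps14 fell by 0.86, and that of Mrps26 gave 0.10 (limma, adjusted p = 0.43). Of 75 subunits of oxidative phosphorylation 35 were lower and 23 higher, among them Ndufb8 (-2.23) and Ndufc2 (-2.11) of complex I and Uqcrfs1 (-2.08), the iron-sulfur protein of complex III. Mitochondrially encoded genes were not analysed here.

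Protein and RNA handling genes followed the same split. Of 36 translation factors 20 were lower and 11 higher, with a median of -0.43, including Naca (-1.95), a chaperone of nascent chains, and Eif4g1 (-1.62), the scaffold of the cap-binding complex. Eif4e, the cap-binding protein itself, fell by 1.5 and was above background on 1 of 4 arrays at 3 weeks. Of 36 proteasome genes 18 were lower and 7 higher, including Psmb4 (-1.85), Psmc5 (-1.53) and Psma7 (-1.42). Of 47 splicing factors 28 were lower and 13 higher, with a median of -0.40. Srsf3, a serine and arginine-rich splicing factor, went against the majority with levels of -1.36, -1.30, -1.38 and -1.59 at 18 h and of 1.67, 1.49, 0.86 and 0.87 at 3 weeks, a difference of 2.63 (SE 0.13). Its other probe gave -0.08 (limma, adjusted p = 0.65). Srsf5 fell by 1.72 and Ddx17, an RNA helicase, by 1.62. Of 30 cytoskeleton genes 14 were lower and 11 higher, and Tuba1b, an alpha-tubulin, fell by 1.72.

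**Figure D3:**
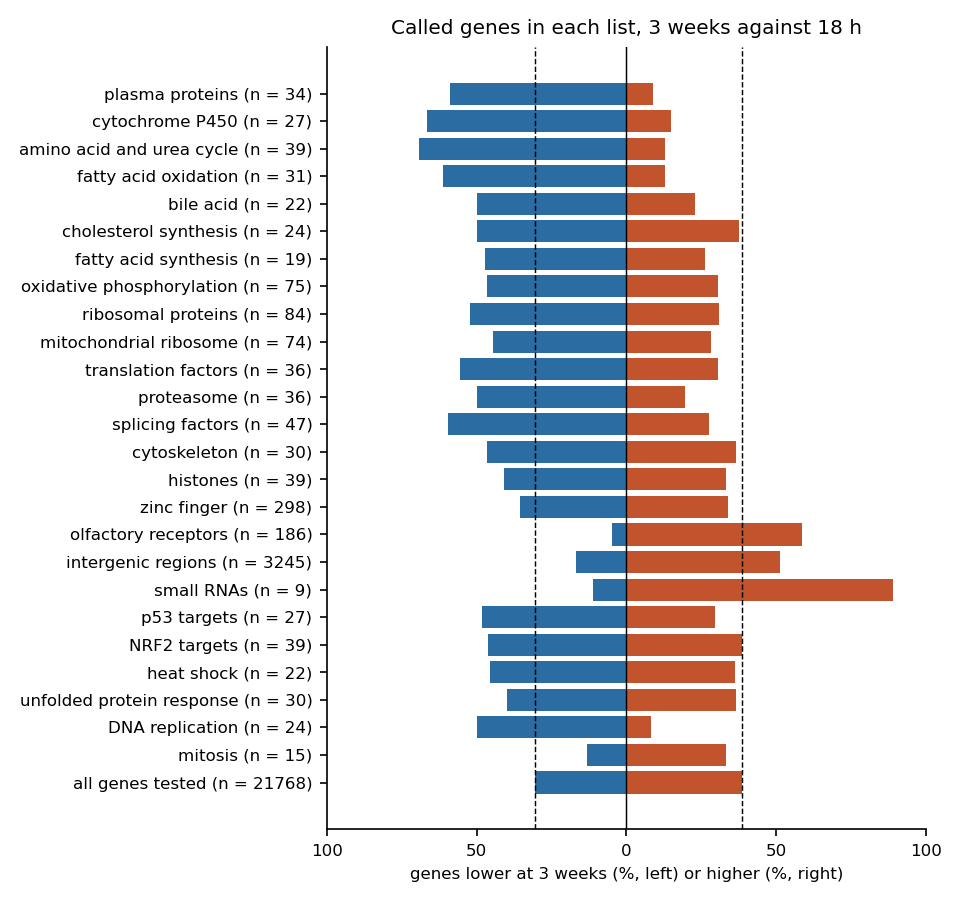
Percentage of the tested genes of each list that were called higher at 3 weeks (orange, to the right) or lower (blue, to the left), with the number tested in parentheses. Dashed lines mark the shares of all genes, 38.4% higher and 30.6% lower, and the small RNAs stand at 8 higher of 9 while the cytochrome P450 list stands at 18 lower of 27.

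Genes commonly used as references for normalisation did not move together. Of 15 tested, 5 were higher and 5 lower, with a median of 0.00, and under median centring 1 was higher and 7 lower, with a median of -0.25. Gapdh, the glycolytic enzyme, had levels of 0.39, 0.21, 0.00 and 0.08 at 18 h and of -1.81, -2.16, -2.01 and -2.33 at 3 weeks, a difference of -2.25 (SE 0.12, limma, adjusted p = 1.53e-07). It has 7 kept probes, and the other 6 gave -2.35, -1.41, -1.15, -0.98, -0.59 and 0.76. So 6 of 7 probes fell and 1 rose, and Gapdh is a gene with many processed copies. Actb, beta-actin, had levels of -0.15, -0.07, -0.01 and -0.10 at 18 h and of 0.04, 0.20, 0.40 and 0.04 at 3 weeks. The 4 values at 3 weeks were above those at 18 h, but its difference of 0.25 (SE 0.11) was not called (limma, adjusted p = 0.055). Hprt, of purine salvage, rose by 0.99 (SE 0.10), and Rpl13a fell by 1.29 (SE 0.10) with its other probes at -0.65 and -0.67.

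Genes of the stress responses known from furan-treated liver also differed between the times, though the dose was the same. So did 69.1% of all genes, with 38.4% higher and 30.6% lower, and the counts of the stress lists are read beside those shares. Of 27 targets of p53, the transcription factor of the DNA damage response, 13 were lower and 8 higher, with a median of -0.37. However, 6 of the 27 were above background on every array at 18 h and on none at 3 weeks. Among targets above background on all 8 arrays, 9 of 17 were lower and 6 higher. Their median was -0.21, against 0.285 for all genes under that condition. Cdkn1a, the cell cycle inhibitor p21, had levels of 1.09, 0.79, 0.84 and 0.74 at 18 h and of -0.76, -0.49, -0.56 and -0.51 at 3 weeks. It fell by 1.45 (SE 0.11, limma, adjusted p = 1.79e-06), while its other probe rose by 1.03. Phlda3, an inhibitor of Akt, went the other way, from -0.18, 0.03, 0.28 and 0.25 to 1.05, 1.36, 1.42 and 1.24, and rose by 1.17 (SE 0.11). Plk2 rose by 1.5 and Sesn2 fell by 1.72.

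Of 39 targets of NRF2, which controls the antioxidant response, 18 were lower and 15 higher. The split was 23 lower and 7 higher under median centring, and 22 and 9 with the mean of a gene's probes. Txn1, thioredoxin, fell by 1.94 (SE 0.11), Abcc2, an exporter of conjugates, by 1.69, and Prdx1, a peroxiredoxin, by 1.35 and 1.26 with its 2 probes. Of 22 heat shock genes 10 were lower and 8 higher, with a median of -0.03. Under median centring 14 were lower and 3 higher, with a median of -0.78. Dnaja1, a cochaperone, fell by 1.99 and Hsp90ab1, a cytosolic chaperone, by 1.49, while Hspb1, a small heat shock protein, rose by 1.71. Hspa8, the constitutive chaperone of the same pathway, overlapped between the times with its brightest probe (0.10, SE 0.10, limma, adjusted p = 0.42), and fell by 2.14 with another. Its sign was below 0 with the authors' values (-0.01).

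Of 30 genes of the unfolded protein and integrated stress responses 12 were lower and 11 higher, or 15 and 4 under median centring. Their median of 0.13 was -0.37 under median centring and -0.08 with Agilent's log ratio. Calr, the chaperone calreticulin, went from 0.39, 0.45, 0.61 and 0.61 to -2.31, -2.02, -1.95 and -2.02, a difference of -2.59 (SE 0.10). Trib3, a pseudokinase induced by this response, rose by 1.56. Of 23 immediate early genes 9 were higher and 5 lower, and Jund rose by 1.46 while the phosphatases Dusp6 and Dusp1 fell by 1.06 and 0.86. Under median centring 2 immediate early genes were higher and 12 lower. Fos did not pass the filter. Of 25 hypoxia genes 6 were lower and 3 higher, but 4 of the 25 passed from 4 arrays above background to none. Among those above background on all 8 arrays 2 of 14 were lower and 4 higher. Bnip3, a mitophagy receptor, rose by 1.45 with its brightest probe, and its 2 others fell by 1.44 and 0.53. Slc16a3, a lactate transporter, rose by 1.46 and 1.47 with its 2 probes, and Pdk1, a kinase that restrains pyruvate oxidation, was at least 2.91-fold lower in the liver channel (3.08-fold over the pool), with no array above background at 3 weeks.

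Genes of proliferation were dim in these livers. Of 24 replication genes 12 were lower and 2 higher, with a median of -0.39, but 7 of the 24 passed from 4 arrays above background to none. Mcm6, of the replicative helicase, rose by 1.04, whereas Mcm4 of the same complex fell by 0.97, with 1 of 4 arrays above background at 3 weeks, and Pold2, a polymerase subunit, by 0.90. Of 15 mitosis genes 5 were higher and 2 lower, or 2 and 3 under median centring. Birc5, survivin, rose by 1.08 with its brightest probe, with its other probes at 0.18 and 0.05, and Ndc80, of the kinetochore, rose by 0.86. Mad2l1, of the spindle checkpoint, fell by 0.57 with one probe and rose by 0.48 with the other.

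Markers of cell types also moved in both directions. In bulk RNA, fewer cells of a type and less RNA per cell cannot be told apart. Of 15 hepatocyte markers 7 were lower and 5 higher, and the median level of the list ran from -0.23 to 0.11 over the 18 h arrays and from -0.88 to -0.19 over the 3-week arrays. G6pc, the glucose-releasing phosphatase, fell by 1.77 and Hnf4a, a nuclear receptor of hepatocyte identity, by 1.38. Pericentral markers gave 6 lower and 3 higher of 13, with Cyp1a2 at -1.52. Periportal markers gave 5 lower and 3 higher of 12, with Cyp2f2 at -0.97, the arginase Arg1 at -0.88 and the glutaminase Gls2 at -0.82. The periportal median of 0.08 turned to -0.74 under median centring. The markers named from these 3 lists were taken by smallest p, and all of those named fell. Other members rose, with highest differences of 1.46 for hepatocyte, 0.72 for pericentral and 1.135 for periportal markers.

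Of 18 macrophage markers 8 were higher and 4 lower, with levels of the list between -0.10 and 0.03 at 18 h and between -0.07 and 0.43 at 3 weeks. Their median difference of 0.12 was -0.41 under median centring, with 4 higher and 10 lower. Trem2, a receptor of lipid-handling macrophages, had levels of -0.77, -0.96, -0.60 and -0.48 at 18 h and of 1.0, 1.74, 1.36 and 1.71 at 3 weeks, and rose by 2.16 (SE 0.16, limma, adjusted p = 1.11e-06). Cd5l and Fcna, of resident Kupffer cells, fell by 1.42 and 1.2. Of 17 sinusoidal endothelial markers 8 were lower and 5 higher, with the lectin Clec4g at -1.65, the phosphatase Ptprb at -1.38 (its other probe at -0.02) and the receptor Eng at 1.12. Of 18 stellate cell markers 8 were lower and 6 higher. With markers above background on all 8 arrays, 5 of 12 endothelial markers were lower and 5 higher. Under that condition 4 of 12 stellate markers were lower and 5 higher. Ecm1 fell by 1.75 with its brightest probe and rose by 0.43 with its other, Colec11 fell by 0.88, and Reln was at least 2.06-fold lower in the liver channel (2.31-fold over the pool).

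Rarer cell types had few detected markers. Of 13 cholangiocyte markers on the array 7 passed the filter, and 3 were higher and 1 lower, with Prom1 at 0.85 and Pkhd1 at 0.43. Under median centring none was higher and 3 were lower, and Pkhd1 turned to -0.29. Lymphocyte markers gave 4 higher of 7 tested and 16 on the array, and neutrophil markers 3 higher of 6 tested and 13 on the array, with none lower in either list. Under median centring the lymphocyte list gave 0 higher and 2 lower, and the neutrophil list 1 and 1. The genes named from them were Gzma (0.67), Cd4 (0.57), Il1b (1.35), Elane (0.42) and Ltf (0.41, with 1 of 4 arrays above background at 3 weeks), of which Cd4 and Elane turned to -0.28 and -0.05 under median centring. Pancreatic acinar markers gave 4 higher of 7 tested and 16 on the array, with list levels of -0.89 to -0.52 at 18 h and -0.39 to -0.16 at 3 weeks. Clps rose by 1.04, Amy2a5 by 0.74 and Cpa1 by 0.72, and Cpa1 turned to -0.03 under median centring.

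Erythroid genes moved in both directions. Hbb-bs and Hba-a1 each had 1 kept probe, so a split between globin chains cannot be told from one between probes. Against the rise of Hbb-bs, the alpha-globin gene Hba-a1 had levels of -0.17, 0.33, -0.30 and -0.26 at 18 h and of -2.09, -1.53, -2.0 and -2.27 at 3 weeks, a difference of -1.87 (SE 0.15, limma, adjusted p = 2.12e-06). Replicate 42 was the highest of its group for both chains at both times. Alas2, the erythroid enzyme that starts haem synthesis, fell by 1.14 (SE 0.09), and 5 of 10 erythroid genes were lower and 3 higher.

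Muscle markers stood out on a single array. Tnnc2, a troponin of fast skeletal muscle, had levels of -1.72, -1.80, -1.64 and -1.96 at 18 h and of -0.62, 3.25, -0.20 and -0.08 in 3-week replicates 41 to 44. Tnnt3, another fast troponin, had -1.92, -1.81, -1.46 and -1.64 at 18 h and -0.85, 3.08, -0.75 and -0.79 at 3 weeks. Replicate 42 was thus the high array, and it was also the highest of the 8 for Acta1 (2.03), Atp2a1 (2.40), Pvalb (2.98) and Myh4 (0.87), the other skeletal muscle genes that passed the filter. The adipose genes Cfd, Cidec, Adipoq and Retn were not high there. With replicate 42 the differences were 2.37 (limma, adjusted p = 0.0079) for Tnnc2, 1.88 (0.036) for Tnnt3 and 1.5 (0.037) for Pvalb. Without it they were 1.46, 0.88 and 0.70, with smaller limma adjusted p of 2.39e-05, 0.000108 and 0.000647. Retn, the adipokine resistin, rose by 1.18 with the array and by 1.17 without it. Without the array 14525 genes were called, so the overall count did not hang on it.

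Different probes of a gene often gave different answers. For 2975 genes with 2 or more kept probes, the differences of the 2 brightest correlated at r = 0.15 (Spearman's rho = 0.14) across genes, which share arrays and are not independent replicates. The median gap between the probes was 0.66 log2 units, against a median SE of 0.12 for the difference at a single probe. In 1445 genes both probes were called, and 828 agreed in direction while 617 were opposite, or 42.7%. Where both probes were designed on the same accession 41.6% were opposite, and where both were above background on all 8 arrays 40.8%. Over all kept probes taken singly 67% were called, 19618 of 29264.

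**Figure D4:**
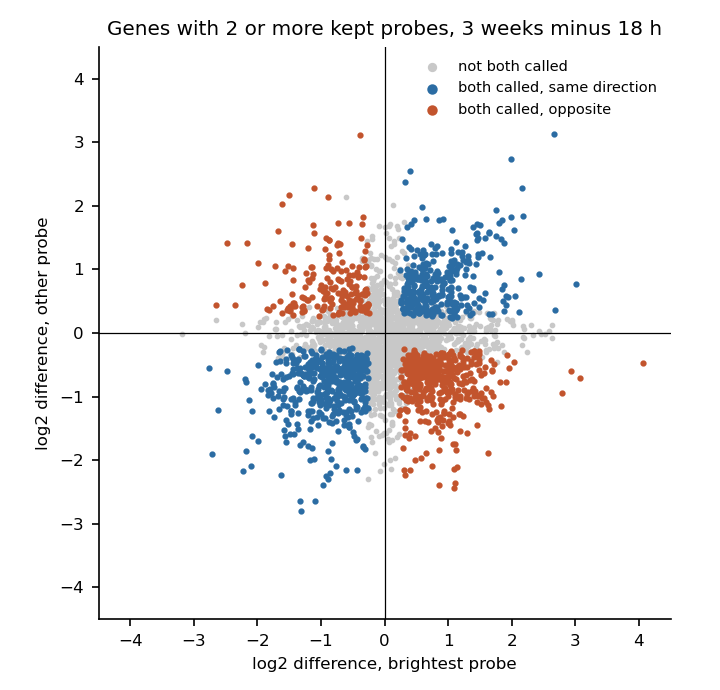
Log2 difference between 3 weeks and 18 h for the brightest probe (horizontal) and the next brightest probe (vertical) of each of 2975 genes, with genes called by both probes in blue where the directions match (828) and in orange where they are opposite (617). The points fill all 4 quadrants, and r across genes is 0.15.

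In 4 genes both of the opposite probes moved by at least 1.5 log2 units. Hmox1, the haem oxygenase induced by oxidative stress, had log2 levels of 0.56, -0.85, -0.33 and -0.86 at 18 h and of 2.11, 1.07, 1.18 and 0.65 at 3 weeks with its brighter probe. With its other probe it had 1.45, 0.08, 0.21 and -0.28 at 18 h and -0.91, -1.46, -1.42 and -2.29 at 3 weeks. Replicate 41 was the highest at both times with both probes, while the probes moved by 1.62 and -1.88 with time. Rps18, of the small ribosomal subunit, fell by 1.68 with one probe, from between 0.42 and 0.47 to between -1.33 and -1.13, and rose by 1.6 with the other. Cox7c, of cytochrome oxidase, gave -1.62, 2.03 and -0.30 with 3 probes, and Irak1, a kinase of Toll-like receptor signalling, -1.5, 2.17 and 0.34. All of these probes were above background on all 8 arrays. Of 152 genes named by rule, 48 had another kept probe, and 17 of these had one that was called in the opposite direction. The 17 include the 4 genes above, which were named for their opposite probes.

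The shares called in each direction varied with the brightness of a probe, which is given as a description. With genes in 10 equal bins by brightness, the dimmest bin had a median log2 difference of -0.20, with 13.5% higher and 35.7% lower. The median was 0.28 in bin 6 and 0.05 in the brightest bin. With genes in 10 bins by genomic span, the bin of the shortest had a median of 0.17 and the others lay between -0.06 and 0.06.

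The change in furan livers resembled that in control livers, which had corn oil alone. Across genes the time differences of furan and control livers correlated at r = 0.89, as a description, since the 2 comparisons share no liver samples but do share the slides and the reference pool. A fit of all 15 samples, in which the control arrays numbered 2.1 and 2.2 were averaged as 1 sample, tested the difference between the time effects. It called 2800 of 21768 genes, or 12.9%, of which 1637 were more positive in furan livers and 1163 more negative. With the authors' values the split turned, with 1517 more positive and 2202 more negative. Of 2245 genes called both here and for time in furan livers, 1773 had the same sign in control livers and 472 the opposite.

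Single genes differed more widely. Tubb2a, a beta-tubulin, had levels of 0.38, 0.58, 0.47 and 0.85 in furan livers at 18 h and of -1.70, -1.69, -1.77 and -1.6 at 3 weeks, a fall of 2.26, while in control livers the difference was -0.05. The difference of the time effects was -2.21 (limma, adjusted p = 5.13e-06). Kansl1, of a histone acetylase complex, fell by 0.96 in furan livers and differed by 0.51 in control livers. Its other probe gave -0.27 in furan livers (limma, adjusted p = 0.089). Zbtb20 fell by 2.62 against a difference of -1.31 in controls. Hebp1, a haem-binding protein, and Atp6v1e1, of the vacuolar proton pump, were not called in furan livers (-0.23 and -0.09), where control livers gave 1.02 and -1.38. H2-K2 differed by -2.72 in furan and by -3.72 in control livers. Cdkn1a differed by -1.45 in furan and by -0.34 in control livers (interaction of -1.11, limma, adjusted p = 0.00096), read by the probe whose partner moved the opposite way. In control livers that probe was above background on 4 of 4 arrays at 18 h and 0 of 4 at 3 weeks. The detection limit therefore bounds the fall it could show there. Trem2 rose by 2.16 in furan livers against 1.08 in controls (interaction of 1.08, limma, adjusted p = 0.0069). Rnu2-10 rose by 3.96 against 2.74.

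**Figure D5:**
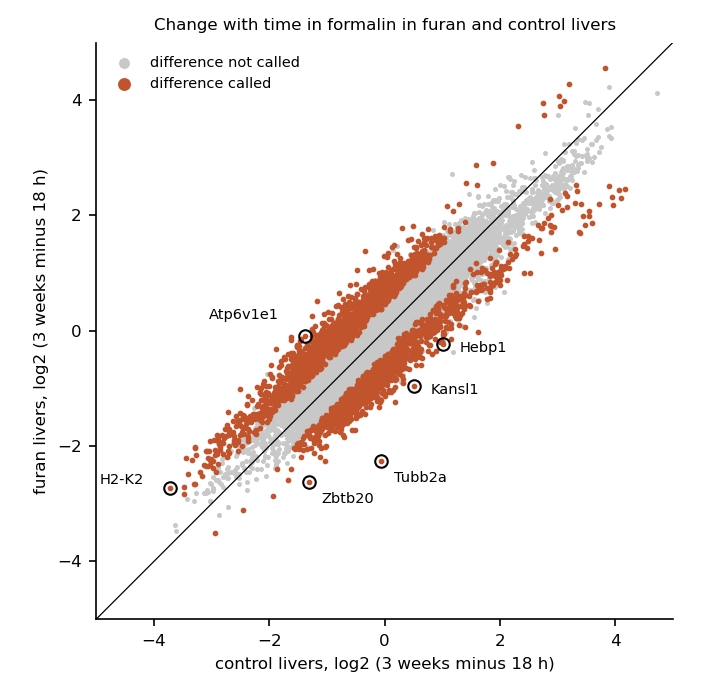
Log2 difference between 3 weeks and 18 h in furan livers (vertical) against that in control livers (horizontal) for 21768 genes, with the 2800 genes whose time effects differ between doses in orange and the 6 genes with the smallest p of that test circled. Most genes lie near the diagonal line of equal change, and Tubb2a lies at -0.05 in controls and -2.26 in furan livers.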

How the data were processed

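Liver RNA was measured on 16 Agilent 2-colour mouse arrays, of which the 8 furan arrays make the comparison. Per the file headers, Agilent Feature Extraction 11.0.1.1 gave median spot and background intensities, processed intensities and a log10 ratio of Cy5 over Cy3, on build mm9. The authors' deposited value table holds log2 ratios of liver over pool, whose normalization is not given in the sources used here. The labels place the liver in Cy5 and the pool in Cy3, with no dye swap, so a bias of the dyes does not cancel.

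The main values were log2 ratios from normexp with offset 50 on the median intensities, with loess within each array (limma 3.58.1 in R 4.3.3). Of 62976 spots 59305 were no controls, in 55681 probes. Probes well above background on 3 or more arrays of a group were kept (29264), and the brightest stood for its gene (21768 genes, 12931 with a symbol in the files). The remainder had none or were intergenic regions. Differences were fitted with lmFit and eBayes, with slide as a term, and tested with a threshold of 0.05 on the adjusted p. Of all values in the tested genes 10 were missing and those genes were fitted on 7 arrays. Biotypes came from RefSeq.

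The members and gene lists were chosen with earlier results of these data known. Genes were named as the 12 largest rises and falls, the 5 largest bounds each way, up to 3 leading members of each list, 10 fixed genes, 4 genes with opposite probes and 6 of the interaction. Some genes that this rule names are not reported here. The fit was tested on simulated data in which 200 of 21768 genes changed 2-fold, and it recovered 81.5% for time and 63.5% for the interaction, with 2.98% and 5.22% of calls false. The simulated noise was independent between genes and no scaling of arrays was simulated. In the data 69.1% of genes were called, so these rates check the fit alone and do not give the error of the calls here. Same-numbered samples of both times deviated together with correlations of 0.069, 0.084, 0.11 and 3.89e-05, so the numbers were not treated as pairs. Properties of probe sequences were not analysed here. Figures were drawn with matplotlib 3.10.9. The alternatives were other background, scaling, filter, probe, slide, weight and replicate choices.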

Additional observations from a re-analysis of the deposited data

Results flagged for a closer look

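In 14 of 306 groups of 4 arrays checked for the named genes and for the share of probes above background, 1 array lay apart from the other 3, and chance alone flags about 1 in 20 such groups. Ccnb1ip1 stood at -0.84 in 18 h replicate 42, against -1.25 to -1.21 in the other 3 arrays. For Clec4g the value was -0.017 in 18 h replicate 44, and the other 3 gave 0.31 to 0.37. The log2 level of Colec11 was -0.29 in 3 weeks replicate 41 and -0.69 to -0.68 elsewhere in the group. Fah stood at -2.05 in 3 weeks replicate 43, against -2.36 to -2.31 in the other 3 arrays. For Gzma the value was 0.23 in 18 h replicate 43, and the other 3 gave -0.13 to -0.07. The log2 level of H4c9 was -1.86 in 3 weeks replicate 43 and -2.11 to -2.10 elsewhere in the group. Hbb-bs stood at -1.84 in 18 h replicate 42, against -2.27 to -2.24 in the other 3 arrays. For Il1b the value was -0.66 in 18 h replicate 41, and the other 3 gave -0.36 to -0.31. The log2 level of Pkhd1 was -0.12 in 3 weeks replicate 44 and -0.41 to -0.39 elsewhere in the group. Retn stood at 0.25 in 3 weeks replicate 44, against -0.03 to 0.01 in the other 3 arrays. For Rtl4 the value was 2.19 in 3 weeks replicate 42, and the other 3 gave 1.67 to 1.75. The log2 level of Tnnc2 was 3.25 in 3 weeks replicate 42 and -0.62 to -0.08 elsewhere in the group. Tnnt3 stood at 3.08 in 3 weeks replicate 42, against -0.85 to -0.75 in the other 3 arrays. For Uroc1 the value was 0.67 in 18 h replicate 44, and the other 3 gave 0.28 to 0.35.

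The change with time in formalin differed between furan and control livers for 48 of the 152 named genes (limma interaction, adjusted p under 0.05). Over all genes tested, 2800 of 21768 were called, or 12.9%. Tubb2a, Kansl1, Zbtb20, Hebp1, H2-K2 and Atp6v1e1 were named for their small p in this test, so their calls were fixed by the choice. The values are the log2 time effect in furan livers minus that in control livers. The time effect was more positive in furan than in control livers for Atp6v1e1 (1.29), Rnu2-10 (1.21), Fah (1.09), Gapdh (1.09) and Trem2 (1.08). Next came chr17:35080914-35090009 (1.08), Ncbp3 (1.04), H2-K2 (1.0), Fcna (0.95) and Ttr (0.88). Cyp1a2 (0.87), chr11:6421951-6429173 (0.85), Gpx1 (0.77), Amy2a5 (0.76) and Cyp2d22 (0.76) followed. Smaller positive differences were those of Rnu12 (0.73), Fads2 (0.72), H4c14 (0.65) and Eng (0.60). Next came Prdx1 (0.59), Retn (0.59) and Cyp2c29 (0.48).

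The time effect was more negative in furan than in control livers for Tubb2a (-2.21), Kansl1 (-1.47), Zbtb20 (-1.31), Hebp1 (-1.25) and Dusp6 (-1.15). Next came Cdkn1a (-1.11), Eif4e (-1.0), Phf14 (-0.96), Calr (-0.92) and Eif4g1 (-0.89). Hsp90ab1 (-0.88), Etfdh (-0.88), Dnaja1 (-0.85) and Tuba1b (-0.76) followed. Smaller negative differences were those of Hnf4a (-0.76), Kcnq1ot1 (-0.74), Txn1 (-0.71), Psma7 (-0.70) and Fgg (-0.68). Next came Rpl30 (-0.66), Alas2 (-0.66), Uroc1 (-0.66) and Dusp1 (-0.64). Psmb4 (-0.56), Hsd17b4 (-0.55) and Amacr (-0.49) followed. In 3-week control livers the probes of Cdkn1a, Eif4e and Kcnq1ot1 were above background on 0 of 4 arrays. Those of Phf14 and Fcna were above it on 1 of 4. For these genes the detection limit can enter the difference.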

How the results depend on the processing

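The count of 15033 genes called lay between 12049 and 15885 under the other backgrounds, scalings, weights and slides and with no filter, was 10685 of 13540 with genes above background on all 8 arrays, and between 14031 and 14808 with any 1 of the 8 arrays left out. Requiring 1.5-fold or 2-fold left 9876 and 4414. The interaction's 2800 calls became 1747 with Agilent's log ratio, 3719 with the authors' values and 1880 to 3014 with a replicate left out. With the replicate block 14926 genes were called for time and 2005 for the interaction, 30 of 41 list medians lay below that of all genes as without it, and Malat1 lost its call (limma, adjusted p = 0.061). Own numbers correlated best for 3 of 4, which is a hint from the data and not the design. The share of probes above background differed by -16.7 to -14.8 points with an array left out, and by 2.29 points, the other way, at 1.5 times the background. Of 3474 values of named genes under other settings 3415 kept their direction and side of the threshold, 31 lost and 14 gained a call and 14 turned.

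Under median centring the medians turned to -0.062 for intergenic regions, -0.64 for histones, -0.37 for the unfolded protein response, -0.52 for fatty acid synthesis, -0.74 for periportal, -0.41 for macrophage, -0.29 for cholangiocyte, -0.28 for lymphocyte and -0.079 for pancreatic genes. Cd4 turned to -0.28, Cpa1 to -0.027, Elane to -0.046, Malat1 to -0.44 and Pkhd1 to -0.29. With Agilent's log ratio the unfolded protein response gave -0.079, fatty acid synthesis -0.18, periportal genes -0.013 and Alb -0.18. With the authors' values periportal genes gave -0.028, Alb -0.018 and Hspa8 -0.0082. Without background subtraction zinc fingers gave 0.0065 and reference genes 0.083. With genes above background on all 8 arrays, which are fewer, nuclear long noncoding RNAs gave 0.23, zinc fingers 0.31, heat shock 0.030, reference 0.15, endothelial 0.098 and stellate genes 0.24. With no filter cholangiocyte genes gave -0.013. With the mean of a gene's probes nuclear long noncoding RNAs gave 0.0014, fatty acid synthesis -0.28, Bnip3 -0.17, Cox7c 0.036, Hmox1 -0.13, Hspa8 -0.78 and Irak1 0.34.

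With an array left out, zinc finger medians lay between -0.031 and 0.0069. Fatty acid synthesis ran from -0.18 to 0.030, endothelial genes from -0.21 to 0.021 and immediate early genes from -0.17 to 0.11. On slide 1 alone endothelial genes gave 0.038 and Hspa8 -0.041. On slide 2 alone histones gave -0.079, heat shock 0.041, fatty acid synthesis -0.14 and periportal genes -0.099. Apart from fewer genes or arrays, the cause of these turns was not tested. Median signal near 2 times background limits what dim probes can show.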
